A study of Mus musculus with 8 samples.

Results

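The genes of voltage-gated sodium channels, voltage-gated calcium channels and potassium channels were followed through neural differentiation of mouse embryonic stem cells labelled as knockout or wild type for Dip2c. Dip2c encodes a disco-interacting protein. The members were all symbols of the expression table that begin with Scn, Cacna1, Cacna2d, Cacnb, Cacng or Kcn and go on as a channel subunit does, 132 of 55078 symbols. The rule reads the symbol alone. There were 8 libraries, 1 for each label and condition. KO-labelled cells, whose genotype the labels give as a knockout, and WT-labelled cells were each sampled after 6 days in N2B27 induction medium, after 4 days in KSR induction medium, and at day 0 of both series in stem cell medium. All 8 libraries are of the line 46C, an embryonic stem cell line made to report activity of the neural gene Sox1. How many KO clones there were is not stated in those labels. In the table, the WT-labelled column of N2B27 differentiation is headed day 7 where its title gives day 6, and day 6 is written here. For 4 samples the description field names a different library than the title: the KO-labelled KSR samples carry the names of the WT-labelled N2B27 ones and the reverse. Columns were placed by the words of their headers, which the titles fit, and the descriptions would exchange those 4 libraries.

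A voltage-gated sodium or calcium channel is a single large pore-forming alpha subunit, which opens when the membrane depolarises, with smaller subunits that set its surface level and gating. Potassium channels are assembled from several pore-forming subunits and bring the membrane back towards rest. T-type calcium channels open at more negative voltages than the other calcium channels. Several gamma subunits of the Cacng family are known mainly as TARPs, which carry AMPA-type glutamate receptors to synapses. Silent Kv subunits form no channel alone and join other Kv pores. Neural progenitors and young neurons are known to switch on many of these genes before they can fire action potentials.

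Values are FPKM, fragments per kilobase of transcript scaled to the mapped fragments of the library, so that levels can be compared between genes per length. Between 13451 and 14335 genes reached 1 FPKM in a library, and the smallest steps between low values imply 12310000 to 14570000 fragments per library. A transcript of 5 kb at 1 FPKM then stands for 61.5 to 72.8 fragments. Dip2c itself had KO 4.43 and WT 5.78 FPKM at N2B27 day 6, KO 4.43 and WT 4.86 at KSR day 4, KO 2.91 and WT 2.74 at N2B27 day 0, and KO 3.33 and WT 3.69 at KSR day 0. The level of its mRNA does not separate the labels, and each contrast is therefore one of KO-labelled and WT-labelled libraries. Eif2s3y, on the Y chromosome, was at 0 in each KO-labelled library and between 7.03 and 14.9 FPKM in the WT-labelled ones. The label contrasts cannot tell Dip2c apart from this difference between the cells. The 6 stem cell markers summed to 15.2 to 118.6 FPKM in the 4 differentiated libraries and to 1748 to 2097 FPKM in the 4 day 0 libraries, and the 6 neural progenitor markers to 302.6 to 762.5 FPKM and to 6.55 to 11.7 FPKM. The 8 neuron markers summed to 93.4 to 313.8 FPKM in the differentiated libraries and to 71.0 to 117.3 FPKM at day 0, which overlap; 7 or 8 of them reached 1 FPKM after differentiation and 1, Stmn2, did so at day 0. Stmn2 alone made most of the day 0 sum. At N2B27 day 6 it had KO 21.1 and WT 72.0 FPKM, against KO 69.7 and WT 90.1 at N2B27 day 0, which overlap. Its N2B27 log2 change was -1.0 (SE 0.36, limma adjusted p = 0.04998), just under 0.05. The lists of other cell types went different ways. Sums of astrocyte, oligodendrocyte, smooth muscle and endoderm markers were higher in each differentiated library than in any day 0 library. Sums of endothelium markers (1.09 to 2.99 against 41.9 to 76.4 FPKM) and heart muscle markers were lower. Those of neural crest, skeletal muscle and pancreas endocrine markers overlapped. Whether the cultures were mixed was not tested. The 4 smooth muscle markers summed to 86.1 to 203.3 FPKM after differentiation and to 0.238 to 0.938 FPKM at day 0. Acta2, Tagln and Cnn1 made nearly all of this sum, and Myh11 was at 0.225 to 0.300 FPKM after differentiation. The 4 endoderm markers summed to 19.9 to 126.5 FPKM and to 0.985 to 2.45 FPKM. At KSR day 4 most of that sum was Foxa2 (KO 15.1 and WT 17.1 FPKM), with Sox17, Gata4 and Gata6 at 0.540 to 1.75 FPKM. At N2B27 day 6 each of the 4 was at 5.17 FPKM or more. In bulk samples, fewer cells of a type and less RNA per cell cannot be told apart.

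In each library most channel genes were under 1 FPKM, and more of them reached it after differentiation than at day 0. In all, 64 of the 132 members stayed under 1 FPKM in every library and 3 of them, Kcna10, Kcnj8 and Kcnk15, were listed at 0 throughout. Members at 1 FPKM or above numbered KO 47 and WT 49 at N2B27 day 6, against KO 25 and WT 29 at N2B27 day 0. They numbered KO 47 and WT 48 at KSR day 4, against KO 27 and WT 29 at KSR day 0. The summed FPKM of the 132 members was KO 328.0 and WT 354.5 at N2B27 day 6, against KO 171.7 and WT 183.5 at N2B27 day 0. It was KO 356.9 and WT 321.6 at KSR day 4, against KO 146.5 and WT 145.6 at KSR day 0. Both counts and sums were higher in each differentiated library than in any day 0 library. Over all 55078 symbols the count was higher too, with 13902 to 14335 at 1 FPKM after differentiation and 13451 to 13735 at day 0. The members made 0.0595% to 0.0696% of all FPKM after differentiation and 0.0258% to 0.0302% at day 0. Just 13 members reached 10 FPKM anywhere, among them Cacna1a, Cacna1g, Cacna1h, Cacnb1, Cacnb3, Cacng4, Cacng7, Kcnh2, Kcnh3, Kcnk1, Kcnk5 and Scn8a. A filter of at least 1 FPKM in at least 2 libraries left 57 members to test, and 75 did not pass it. Of those 57, 22 were under 1 FPKM in every day 0 library and 4 (Cacng5, Kcnh3, Kcns3 and Kcnu1) were under 1 FPKM in every differentiated library. Such genes entered through the side where they were high, so the counts of tests below describe the 57 and are no measure of the 132.

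**Figure D1:**
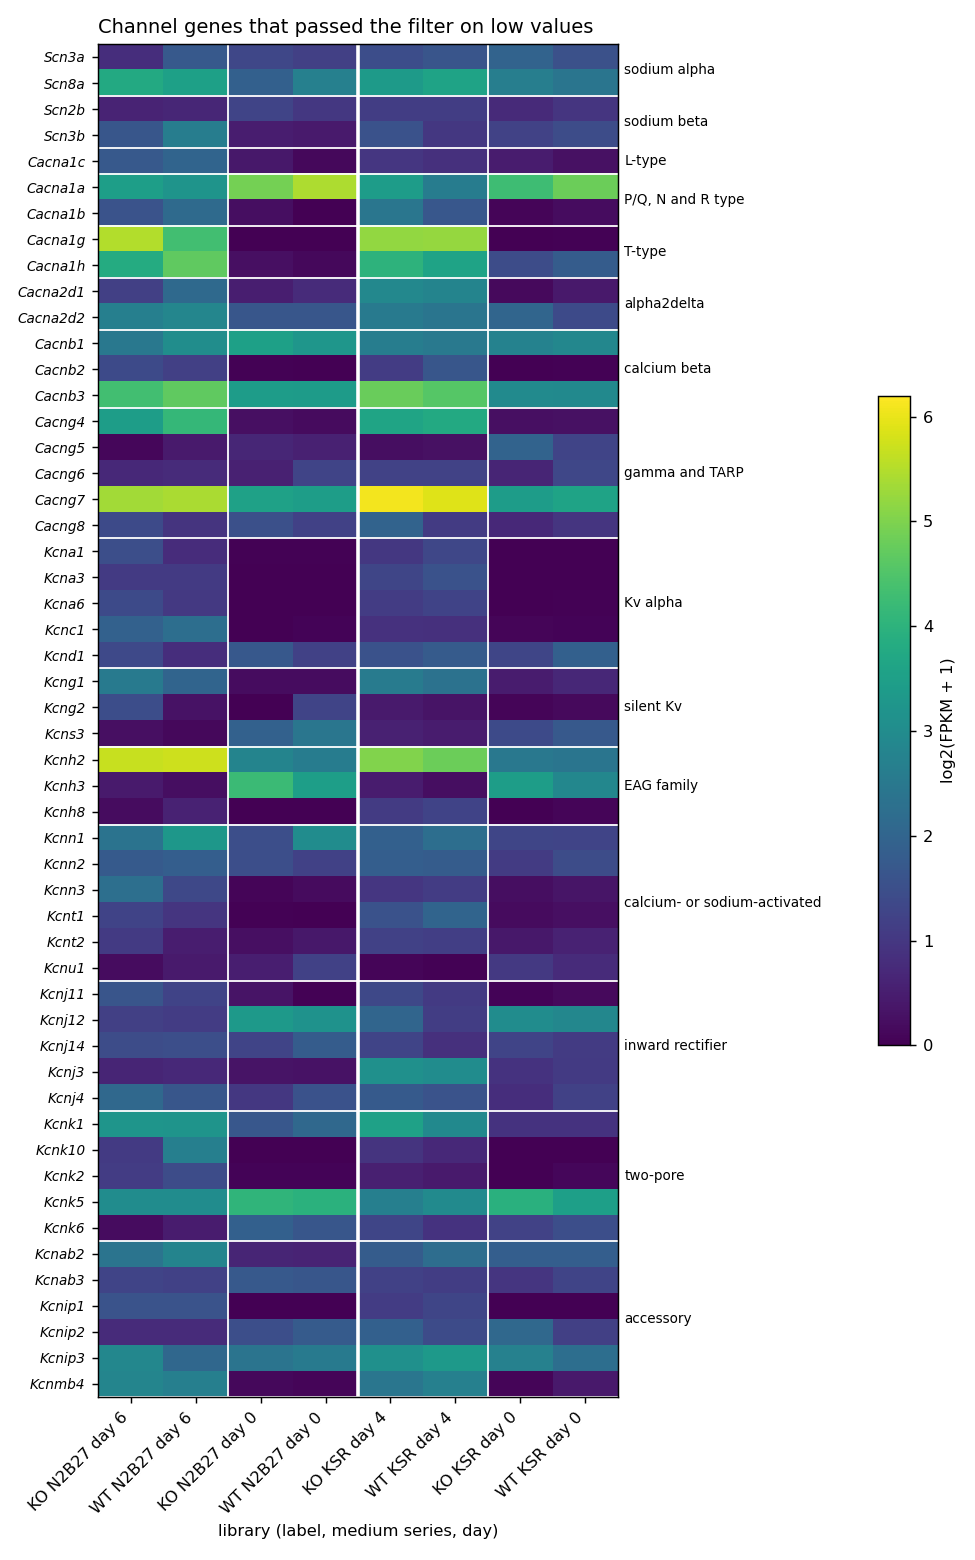
Each row is 1 of 52 channel genes that passed the filter on low values, each column 1 library, and colour is log2(FPKM + 1). Rows are grouped by role as read from the symbol. Kcnu1 stands among the calcium- or sodium-activated genes by its symbol alone. Cacna1g, Cacna1h, Cacng4 and Kcnmb4 are bright in the 4 differentiated libraries, and Kcnh3 is bright in the 4 day 0 libraries.

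The test was limma on log2(FPKM + 1) over 15967 genes, in which the libraries of both labels stood as the 2 libraries of a condition. Its p-values measure the spread between those libraries and not that between repeat cultures. At N2B27 day 6 against day 0, 30 of the 57 tested members rose and 9 fell at an adjusted p under 0.05, 52.6% and 15.8% of them, where the background over all genes tested was 29.7% higher and 26.2% lower. At KSR day 4 against day 0, 25 rose and 8 fell, 43.9% and 14% of them, against a background of 28.5% higher and 20% lower. The 8 that fell in KSR were 4 without the WT KSR day 4 library and 5 without the WT KSR day 0 library. The members' median log2 change was 1.05 in N2B27 and 0.74 in KSR, against 0.0392 and 0.0799 over all genes tested. In both media 23 members rose and 6 fell, and 0 went opposite ways, where 21.8% of all genes tested rose in both, 15.6% fell in both and 0.551% went opposite ways. Counted without the filter, over the 129 members above 0 somewhere, 72 had both N2B27 day 6 libraries above both day 0 libraries and 24 had both below. The background over all 30433 genes above 0 was 30.9% higher and 25.8% lower, and the members' shares were 55.8% and 18.6%. In KSR, 78 were above and 15 below, 60.5% and 11.6%, against 32.2% and 26.6% of all such genes. All 4 differentiated libraries lay above all 4 day 0 libraries for 61 members and below for 10, against a background of 19.9% and 14.6%. Of the 72 members above 0 that did not pass the filter, 30 were above and 2 below, 41.7% and 2.78%, where the background over the 14466 such genes was 8.86% and 5.69%.

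**Figure D2:**
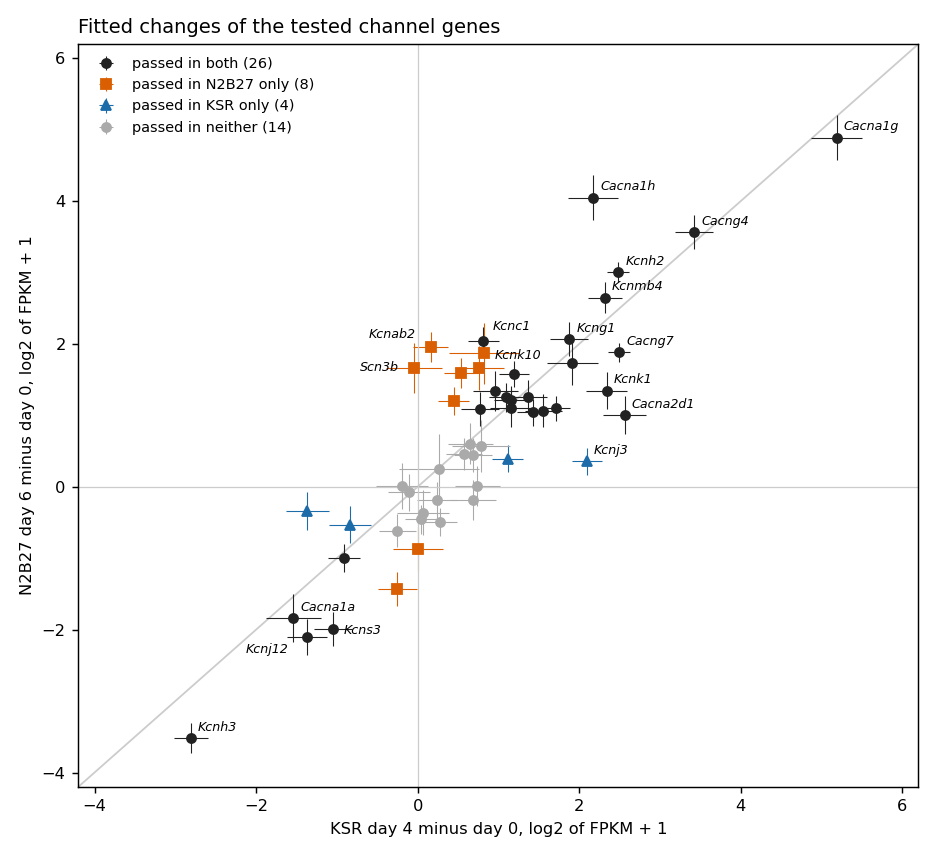
Points are 52 of the 57 tested channel genes, with the fitted log2 change of FPKM + 1 at KSR day 4 against day 0 on the x axis and at N2B27 day 6 against day 0 on the y axis. Bars are standard errors of the limma fit, the diagonal marks equal changes, and colours give the media in which a gene passed an adjusted p of 0.05. Cacna1g lies highest in both media and Kcnh3 lowest. Cacna1h, Kcnab2, Kcnj3, Scn3b and Cacna2d1 lie far from the diagonal, and of these Kcnab2 and Kcnj3 passed the test of the difference.

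Promoter sequence is shown for 4 members that stand for the patterns described below: Kcnh2 and Cacng7, which rose in both media, Kcnj3, which rose in KSR, and Kcns3, which fell in both. RefSeq (GRCm38.p6) gave a window of 250 bases before to 50 after a start for 97 of the 132 members. The windows are chr5:24329542-24329841 on the minus strand for Kcnh2, chr7:3332575-3332874 on the plus strand for Cacng7, chr2:55435720-55436019 on the plus strand for Kcnj3 and chr12:11150793-11151092 on the minus strand for Kcns3. The start used for Kcnh2 lies 22013 bases inside the 5′ end of the GENCODE gene. Capitals mark GGGCGG, the core of the site of Sp factors, and CAGCTG, a motif of bHLH factors, on either strand.
Kcnh2: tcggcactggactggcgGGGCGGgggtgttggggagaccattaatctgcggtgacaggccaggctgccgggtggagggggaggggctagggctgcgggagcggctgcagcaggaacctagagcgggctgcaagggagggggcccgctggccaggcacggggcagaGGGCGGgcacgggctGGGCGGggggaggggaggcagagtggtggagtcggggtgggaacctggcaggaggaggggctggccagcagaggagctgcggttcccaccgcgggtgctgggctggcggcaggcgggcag
Cacng7: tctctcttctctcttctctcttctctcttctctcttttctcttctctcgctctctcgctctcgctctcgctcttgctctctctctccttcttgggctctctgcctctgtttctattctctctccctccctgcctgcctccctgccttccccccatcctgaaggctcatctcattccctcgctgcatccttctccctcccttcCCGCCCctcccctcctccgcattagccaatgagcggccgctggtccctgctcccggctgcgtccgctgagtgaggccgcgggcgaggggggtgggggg
Kcnj3: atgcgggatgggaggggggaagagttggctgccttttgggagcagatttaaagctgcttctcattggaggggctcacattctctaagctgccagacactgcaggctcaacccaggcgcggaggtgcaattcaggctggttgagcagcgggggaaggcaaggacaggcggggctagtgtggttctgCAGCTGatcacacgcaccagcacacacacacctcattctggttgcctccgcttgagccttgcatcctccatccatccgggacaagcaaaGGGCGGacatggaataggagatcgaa
Kcns3: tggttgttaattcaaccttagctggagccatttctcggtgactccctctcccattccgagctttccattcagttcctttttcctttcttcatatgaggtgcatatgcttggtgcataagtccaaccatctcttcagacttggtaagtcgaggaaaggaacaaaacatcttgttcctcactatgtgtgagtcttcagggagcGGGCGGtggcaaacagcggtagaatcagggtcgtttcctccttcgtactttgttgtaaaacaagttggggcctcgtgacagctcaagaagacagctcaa
GGGCGG occurred 3 times in the Kcnh2 window and 1 time in each of the others, and CAGCTG occurred 1 time, in that of Kcnj3. GC content was 74.3% for Kcnh2, 62.0% for Cacng7, 57.7% for Kcnj3 and 47.0% for Kcns3, beside a median of 58% over the members' windows and 52.7% over all windows. Read on both strands, GGGCGG was found in 58.8% of the 97 members and in 38.2% of 27025 genes with a window. CAGCTG was found in 29.9% of members and 18.3% of genes, and TATAAA in 7.22% and 15.7%. The 9-letter left part of the site of REST, a repressor of neuronal genes, TTCAGCACC, was found in 1 member, Kcnh6, 1.03% of members and 0.433% of genes. No base of the 4 windows shown lies in more than 1 of these motifs.

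Among the pore-forming calcium channel genes, both T-type genes that passed the filter rose and the P/Q-type gene fell. Cacna1g (chr11:94408391-94474198, minus strand, GRCm38), which encodes a T-type pore, had KO 43.5 and WT 18.9 FPKM at N2B27 day 6, against KO 0.0132 and WT 0 at N2B27 day 0. It had KO 35.6 and WT 35.9 FPKM at KSR day 4, against KO 0 and WT 0.0194 at KSR day 0. It was at or near 0 at day 0 and was among the highest channel genes in every differentiated library. Its log2 change was 4.89 (SE 0.32, adjusted p = 4.23e-05) in N2B27 and 5.19 (SE 0.32, adjusted p = 4.29e-05) in KSR. Cacna1h (chr17:25374285-25433783, minus strand), the other T-type pore read here, had KO 13.1 and WT 24.7 FPKM at N2B27 day 6, against KO 0.194 and WT 0.103 at N2B27 day 0. At KSR day 4 it had KO 15.01 and WT 11.04 FPKM, against KO 1.70 and WT 2.52 at KSR day 0. It thus started higher in the KSR series, and the groups did not overlap in either medium. It changed on the log2 scale by 4.05 (SE 0.31, adjusted p = 8.20e-05) in N2B27 and 2.17 (SE 0.31, adjusted p = 0.00143) in KSR. The difference between these changes, 1.88 (SE 0.44), did not pass (adjusted p = 0.067), nor did that between the day 0 series, -1.43 (SE 0.31, adjusted p = 0.0735). The third T-type gene, Cacna1i, stayed under 1 FPKM in every library.

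Cacna1a (chr8:84388440-84640246, plus strand) encodes the P/Q-type pore, which triggers transmitter release at many synapses. It was the highest calcium channel pore gene at day 0. It had KO 10.1 and WT 8.17 FPKM at N2B27 day 6, against KO 28.8 and WT 42.4 at N2B27 day 0. It had KO 9.68 and WT 5.04 FPKM at KSR day 4, against KO 18.4 and WT 27.05 at KSR day 0. All 4 day 0 values lay above all 4 later ones. Its fitted log2 change was -1.83 (SE 0.34, adjusted p = 0.00348) in N2B27 and -1.54 (SE 0.34, adjusted p = 0.00863) in KSR. The KSR call was lost without the WT KSR day 4 library (log2 change -0.99, adjusted p = 0.058) and without the WT KSR day 0 library (-1.18, adjusted p = 0.0776). Cacna1b, the N-type pore, moved the other way. It had KO 2.001 and WT 3.40 FPKM at N2B27 day 6, against KO 0.175 and WT 0.0139 at N2B27 day 0, and KO 4.43 and WT 2.23 at KSR day 4, against KO 0.0634 and WT 0.158 at KSR day 0. Its log2 change was 1.73 (SE 0.31, adjusted p = 0.00331) in N2B27 and 1.92 (SE 0.31, adjusted p = 0.00254) in KSR. Of the L-type genes, 1 of 4 was tested. Cacna1c, the L-type pore of heart, smooth muscle and brain, had KO 2.29 and WT 2.99 FPKM at N2B27 day 6, against KO 0.311 and WT 0.0941 at N2B27 day 0. It had KO 0.958 and WT 0.807 at KSR day 4, against KO 0.393 and WT 0.215 at KSR day 0. It rose in N2B27, by 1.60 on the log2 scale (SE 0.21, adjusted p = 8.37e-04), and its KSR change of 0.53 (SE 0.21) did not pass (adjusted p = 0.0764). Smooth muscle markers rose in the same libraries, as given above, and their part in the Cacna1c values was not tested.

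Of the calcium channel subunits around the pore, 6 of the 10 tested rose in N2B27 and 6 in KSR. Over all genes tested, 29.7% and 28.5% rose. The same 6 rose in both media, Cacna2d1, Cacna2d2, Cacnb2, Cacnb3, Cacng4 and Cacng7. Of these, Cacna2d1, Cacnb2 and Cacng4 were under 1 FPKM in every day 0 library and passed the filter through their differentiated values alone. Just 1 of the 10, Cacng5, fell in KSR, where 20% of all genes tested fell. Cacng7 (chr7:3332955-3368221, plus strand), a TARP gene, was the highest of all 132 members in KSR. It had KO 39.8 and WT 41.7 FPKM at N2B27 day 6, against KO 10.7 and WT 9.96 at N2B27 day 0, and KO 67.7 and WT 58.9 at KSR day 4, against KO 9.79 and WT 11.1 at KSR day 0. It was thus already above most members in stem cells. The log2 change was 1.88 (SE 0.14, adjusted p = 6.31e-05) in N2B27 and 2.49 (SE 0.14, adjusted p = 2.88e-05) in KSR. Cacng4 (chr11:107732357-107794557, minus strand), another TARP gene, was near 0 in stem cells. It had KO 9.87 and WT 16.5 FPKM at N2B27 day 6, against KO 0.188 and WT 0.141 at N2B27 day 0, and KO 11.3 and WT 12.7 at KSR day 4, against KO 0.201 and WT 0.217 at KSR day 0. Its log2 change was 3.56 (SE 0.24, adjusted p = 4.45e-05) in N2B27 and 3.42 (SE 0.24, adjusted p = 6.33e-05) in KSR. Cacng5, also of the TARP group, had KO 0.182 and WT 0.208 FPKM at KSR day 4, against KO 2.90 and WT 1.43 at KSR day 0, a log2 change of -1.36 (SE 0.27, adjusted p = 0.00548). In N2B27 it had KO 0.0760 and WT 0.359 at day 6, against KO 0.584 and WT 0.474 at day 0, and did not pass.

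The alpha2delta subunits carry calcium channels to the membrane, and Cacna2d1 is among those bound by gabapentin. Cacna2d1 had KO 1.27 and WT 3.33 FPKM at N2B27 day 6, against KO 0.443 and WT 0.695 at N2B27 day 0. It had KO 6.39 and WT 6.00 FPKM at KSR day 4, against KO 0.107 and WT 0.339 at KSR day 0. Every differentiated value lay above every day 0 value, and the KSR values were highest. It changed on the log2 scale by 1.003 (SE 0.27, adjusted p = 0.0171) in N2B27 and 2.56 (SE 0.27, adjusted p = 3.58e-04) in KSR. The N2B27 change was 0.61 (adjusted p = 0.084) without the WT N2B27 day 6 library, and also missed the threshold without KO (adjusted p = 0.0659) or WT (adjusted p = 0.103) N2B27 day 0. Cacna2d2 changed by 1.09 in N2B27 and by 0.77 in KSR. Its N2B27 call was lost without WT N2B27 day 6 (log2 change 0.88) or KO N2B27 day 0 (0.98). Its KSR call was lost without WT KSR day 0 (0.45), KO KSR day 4 (0.76) or WT KSR day 4 (0.77). The KSR call was also lost without either N2B27 day 0 library. There the change stayed at 0.77, since those libraries enter its error and not the change. Cacnb3, a cytoplasmic beta subunit, was the highest beta gene after differentiation. It had KO 19.1 and WT 24.8 FPKM at N2B27 day 6, against KO 9.71 and WT 9.54 at N2B27 day 0, and KO 26.7 and WT 22.5 at KSR day 4, against KO 6.78 and WT 6.74 at KSR day 0. Its log2 change was 1.10 (SE 0.17) in N2B27 and 1.72 (SE 0.17) in KSR. Cacnb1, the beta subunit that partners the skeletal muscle pore, had KO 4.61 and WT 7.25 FPKM at N2B27 day 6, against KO 10.4 and WT 8.50 at N2B27 day 0, and did not pass in either medium.

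Among the sodium channel pore genes, Scn8a was the highest in every library. Scn8a (chr15:100869858-101045938, plus strand), the pore found at nodes and axon initial segments of mature neurons, had KO 12.5 and WT 10.4 FPKM at N2B27 day 6, against KO 2.71 and WT 5.51 at N2B27 day 0. It had KO 9.44 and WT 11.1 FPKM at KSR day 4, against KO 5.25 and WT 4.33 at KSR day 0. All 4 differentiated values were above all 4 day 0 values. Its fitted log2 change was 1.34 (SE 0.28, adjusted p = 0.00603) in N2B27 and 0.96 (SE 0.28, adjusted p = 0.0264) in KSR. Without KO N2B27 day 0 the N2B27 change was 0.89 (adjusted p = 0.0335), and without KO N2B27 day 6 it missed the threshold (adjusted p = 0.051). The KSR call was lost without any 1 of the 4 KSR libraries (adjusted p 0.0522 without KO day 0, 0.102 without KO day 4, 0.137 without WT day 4 and 0.184 without WT day 0). Scn3a, the pore known from embryonic brain, had KO 0.762 and WT 2.30 FPKM at N2B27 day 6 and KO 1.77 and WT 2.12 at KSR day 4, against KO 1.51 and WT 1.27 at N2B27 day 0 and KO 2.93 and WT 1.89 at KSR day 0. Its groups overlapped in both media. The other 8 pore genes, among them Scn1a and Scn2a of the brain, Scn4a of skeletal muscle and Scn10a of sensory neurons, stayed under 1 FPKM in all libraries. The 3 defining skeletal muscle markers were at 0.163 FPKM or less in sum.

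Among the small beta subunits of the sodium channel, 3 of 4 were tested. Scn3b, a beta subunit of embryonic brain, had KO 2.13 and WT 5.20 FPKM at N2B27 day 6, against KO 0.407 and WT 0.369 at N2B27 day 0. It had KO 1.96 and WT 1.02 FPKM at KSR day 4, against KO 1.32 and WT 1.74 at KSR day 0. It rose in N2B27 by 1.67 on the log2 scale (SE 0.35, adjusted p = 0.00626), a call lost without WT N2B27 day 0 (adjusted p = 0.0607), and its KSR groups overlapped (log2 change -0.04, SE 0.35).

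**Figure D3:**
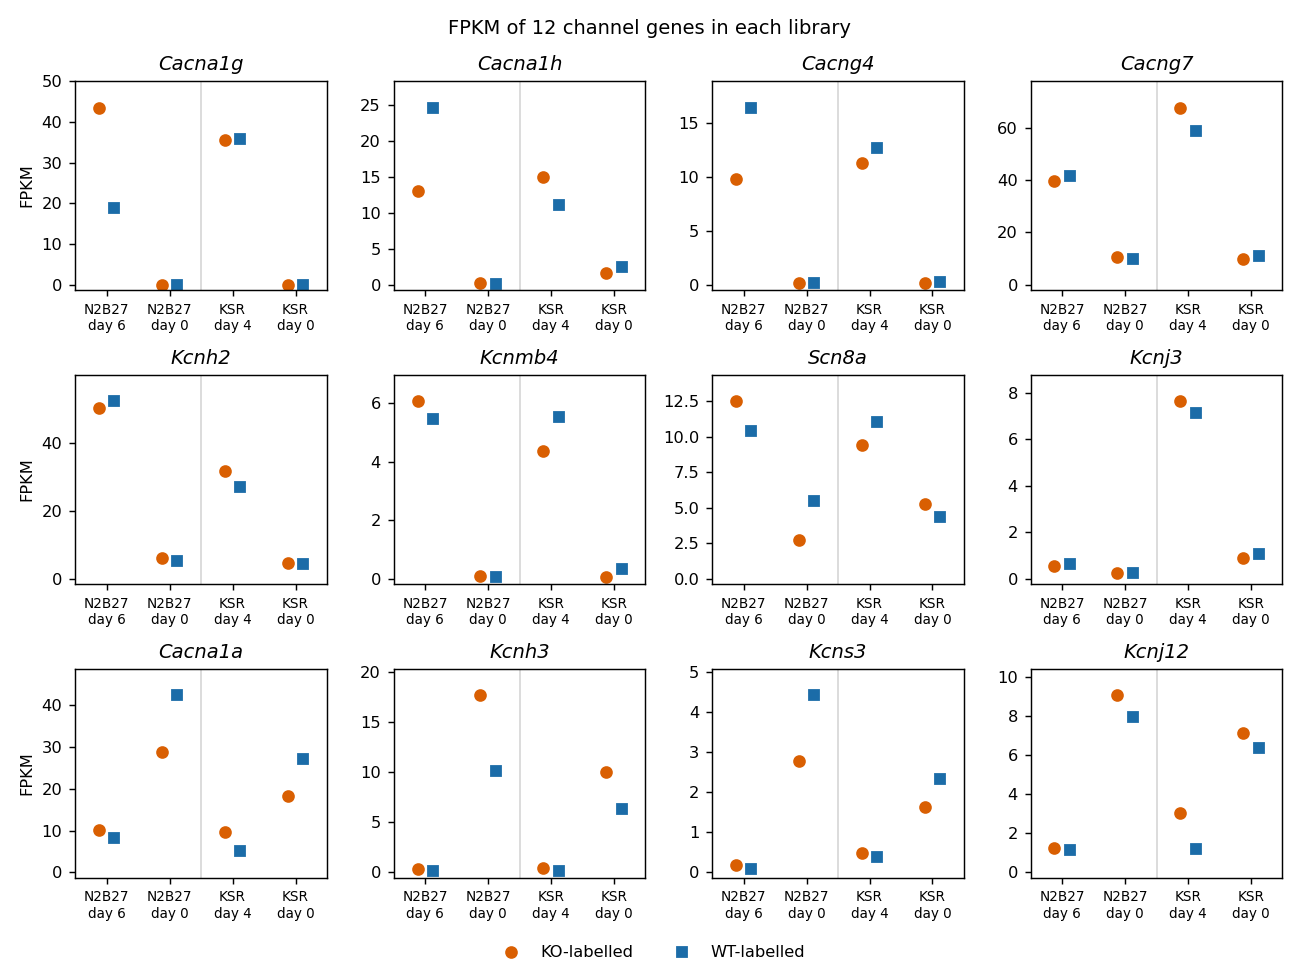
Each panel gives the FPKM of 1 channel gene in the 8 libraries, with 1 point for each KO-labelled and each WT-labelled library and no error bar, since each is a single library. The x axis holds the condition and the y axis, which differs between panels, is linear. The top and middle rows are higher after differentiation, except that Kcnj3 is high at KSR day 4 alone, and the bottom row is lower.

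Within the EAG family of potassium channels, Kcnh2 and Kcnh8 rose and Kcnh3 fell. Kcnh2 (chr5:24319589-24351604, minus strand), the ERG pore known from the heart and also used by neurons, was the highest member in N2B27. It had KO 50.3 and WT 52.2 FPKM at N2B27 day 6, against KO 5.92 and WT 5.07 at N2B27 day 0, and KO 31.7 and WT 27.04 at KSR day 4, against KO 4.58 and WT 4.28 at KSR day 0. The labels lay close together in every condition. Its log2 change was 3.01 (SE 0.14, adjusted p = 1.45e-05) in N2B27 and 2.48 (SE 0.14, adjusted p = 3.26e-05) in KSR. Heart muscle markers summed to 2.92 to 3.92 FPKM in the 4 differentiated libraries and to 4.30 to 8.30 FPKM at day 0. Tnnt2 and Myl7 were lower in both media, and Myh6 and Actn2 overlapped in N2B27 and were higher in KSR. Nkx2-5 was higher in both, with KO 1.89 and WT 1.27 FPKM at N2B27 day 6, against KO 0.221 and WT 0.716 at N2B27 day 0. The part of heart muscle cells in the Kcnh2 values was not tested. Kcnh3 (chr15:99224861-99242817, plus strand), an ELK pore of forebrain neurons, fell further than any other member in both media. It had KO 0.369 and WT 0.165 FPKM at N2B27 day 6, against KO 17.7 and WT 10.2 at N2B27 day 0, and KO 0.394 and WT 0.175 at KSR day 4, against KO 10.002 and WT 6.31 at KSR day 0. It changed on the log2 scale by -3.52 (SE 0.21, adjusted p = 3.24e-05) in N2B27 and -2.81 (SE 0.21, adjusted p = 9.32e-05) in KSR. The KO-labelled library was the higher in all 4 conditions, by a log2 difference of 0.45 (SE 0.15), which did not pass over all genes (adjusted p = 0.945). Kcnh8, another ELK pore, had KO 1.10 and WT 1.36 FPKM at KSR day 4, against KO 0 and WT 0.0524 at KSR day 0, and rose in KSR by 1.12 on the log2 scale (SE 0.19, adjusted p = 0.00317).

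Of 17 Kv alpha genes, 7 were tested, and 5, among them Kcna1, Kcna3, Kcna6 and Kcnc1, rose in both media. Over all genes tested, 21.8% rose in both. These 4 named genes were at 0 to 0.0539 FPKM at day 0 and passed the filter through the differentiated libraries alone. Kcnc1, a fast Kv pore of quickly firing interneurons, had KO 2.82 and WT 3.71 FPKM at N2B27 day 6, against KO 0.0163 and WT 0.0349 at N2B27 day 0. It had KO 0.847 and WT 0.824 FPKM at KSR day 4, against KO 0.0539 and WT 0.0375 at KSR day 0. Its fitted log2 change was 2.05 (SE 0.19, adjusted p = 1.91e-04) in N2B27 and 0.81 (SE 0.19, adjusted p = 0.0122) in KSR, where the call was lost without any 1 of the 4 KSR libraries (adjusted p from 0.0553 to 0.0827). Kcna1, Kcna3 and Kcna6, delayed rectifier pores, ran from 0.719 to 1.95 FPKM in the differentiated libraries and from 0 to 0.0252 FPKM at day 0. The call of Kcna1 was lost without either N2B27 day 0 library (adjusted p = 0.0703 without KO and 0.0564 without WT), and its N2B27 log2 change of 1.10 was 0.70 without KO N2B27 day 6. Its KSR call was lost without WT day 4 (adjusted p = 0.0915), KO day 0 (0.0732) or WT day 0 (0.0517).

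Of the 3 silent Kv genes tested, Kcng1 rose and Kcns3 fell in both media. Kcng1 had KO 4.89 and WT 3.003 FPKM at N2B27 day 6, against KO 0.159 and WT 0.159 at N2B27 day 0. It had KO 4.95 and WT 4.03 FPKM at KSR day 4, against KO 0.378 and WT 0.618 at KSR day 0, and rose by 2.07 (SE 0.24, adjusted p = 4.62e-04) in N2B27 and 1.87 (SE 0.24, adjusted p = 8.57e-04) in KSR. Kcns3 (chr12:11090202-11151056, minus strand) had KO 0.190 and WT 0.0946 FPKM at N2B27 day 6, against KO 2.79 and WT 4.42 at N2B27 day 0. It had KO 0.474 and WT 0.381 FPKM at KSR day 4, against KO 1.62 and WT 2.33 at KSR day 0. Every Kcng1 value was higher after differentiation and every Kcns3 value lower. Kcns3 fell by 1.99 on the log2 scale (SE 0.23, adjusted p = 4.94e-04) in N2B27 and by 1.05 (SE 0.23, adjusted p = 0.0094) in KSR, and the KSR call was lost without WT KSR day 4 (adjusted p = 0.0831) or WT KSR day 0 (adjusted p = 0.0742).

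The next group held the potassium channel genes whose symbols begin with Kcnma, Kcnn, Kcnt or Kcnu. Kcnt1, a sodium-activated pore, rose in both media, by 1.07 (SE 0.23, adjusted p = 0.00681) in N2B27 and 1.56 (SE 0.23, adjusted p = 0.00157) in KSR. Its N2B27 call was lost without WT N2B27 day 0 (adjusted p = 0.0511). Kcnn3, a small-conductance SK pore, had KO 3.84 and WT 1.54 FPKM at N2B27 day 6, against KO 0.0691 and WT 0.142 at N2B27 day 0, and rose in N2B27 by 1.66 (SE 0.30, adjusted p = 0.00337). Kcnu1, the sperm channel, had KO 0.0587 and WT 0.0199 FPKM at KSR day 4, against KO 1.04 and WT 0.698 at KSR day 0. It fell in KSR by 0.84 (SE 0.26, adjusted p = 0.0339), a call lost without KO KSR day 4 (adjusted p = 0.0809), WT KSR day 4 (0.186) or KO KSR day 0 (0.224). Kcnmb4 (chr10:116417861-116473878, minus strand) encodes the neuronal beta subunit of the large-conductance BK channel. It had KO 6.05 and WT 5.44 FPKM at N2B27 day 6, against KO 0.0890 and WT 0.0594 at N2B27 day 0, and KO 4.36 and WT 5.53 at KSR day 4, against KO 0.0531 and WT 0.340 at KSR day 0. The log2 change was 2.65 (SE 0.21, adjusted p = 9.65e-05) in N2B27 and 2.32 (SE 0.21, adjusted p = 1.95e-04) in KSR. The BK pore gene Kcnma1 stayed under 1 FPKM, with KO 0.231 and WT 0.485 at N2B27 day 6 and KO 0.314 and WT 0.237 at KSR day 4, against 0.00516 to 0.0680 at day 0. All of its differentiated values lay above its day 0 values.

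Inward rectifiers hold the resting potential, and 5 of 15 were tested. Kcnj12 had KO 1.27 and WT 1.14 FPKM at N2B27 day 6, against KO 9.05 and WT 7.92 at N2B27 day 0, and KO 3.05 and WT 1.19 at KSR day 4, against KO 7.13 and WT 6.33 at KSR day 0. It fell by 2.10 on the log2 scale (SE 0.25, adjusted p = 4.92e-04) in N2B27 and by 1.38 (SE 0.25, adjusted p = 0.00381) in KSR. Kcnj11, the pore of ATP-sensitive potassium channels, rose in both, by 1.26 (SE 0.20) in N2B27 and 1.09 (SE 0.20) in KSR. Kcnj3 (chr2:55435970-55598145, plus strand), a subunit of the G protein-gated channel, had KO 0.554 and WT 0.637 FPKM at N2B27 day 6, against KO 0.263 and WT 0.227 at N2B27 day 0. It had KO 7.63 and WT 7.15 FPKM at KSR day 4, against KO 0.872 and WT 1.07 at KSR day 0. It was high in the KSR day 4 libraries of both labels and low elsewhere. It rose in KSR by 2.09 (SE 0.19, adjusted p = 1.78e-04), and its N2B27 change of 0.36 (SE 0.19) did not pass (adjusted p = 0.144). Its usual partners Kcnj5, Kcnj6 and Kcnj9 stayed under 1 FPKM in all libraries.

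Two-pore genes carry leak currents, and 5 of 14 were tested. Kcnk5, an acid-sensitive leak pore, was the highest of them at day 0. It had KO 7.13 and WT 7.14 FPKM at N2B27 day 6, against KO 15.7 and WT 14.7 at N2B27 day 0, and KO 5.38 and WT 6.76 at KSR day 4, against KO 14.4 and WT 10.4 at KSR day 0. It fell by 0.99 (SE 0.20, adjusted p = 0.00511) in N2B27 and by 0.91 (SE 0.20, adjusted p = 0.00852) in KSR, where the call was lost without KO day 4 (adjusted p = 0.0753) or KO day 0 (adjusted p = 0.086). Kcnk1, a weak inward rectifier common in brain, had KO 8.48 and WT 8.27 FPKM at N2B27 day 6, against KO 2.21 and WT 3.24 at N2B27 day 0, and KO 10.6 and WT 6.75 at KSR day 4, against KO 0.880 and WT 0.869 at KSR day 0. It rose by 1.35 (SE 0.25, adjusted p = 0.00404) in N2B27 and 2.34 (SE 0.25, adjusted p = 4.27e-04) in KSR. Kcnk10, a stretch-sensitive pore, was listed at 0 in all 4 day 0 libraries and had KO 1.09 and WT 5.36 FPKM at N2B27 day 6. At KSR day 4 it had KO 0.913 and WT 0.639 FPKM, a change that did not pass (adjusted p = 0.157). Its N2B27 change of 1.87 (SE 0.43, adjusted p = 0.00952) was 1.03 (adjusted p = 0.0121) without WT N2B27 day 6 and missed the threshold without WT N2B27 day 0 (adjusted p = 0.0874). Kcnk2, its close relative, rose in N2B27 by 1.21 (SE 0.20, adjusted p = 0.00217), with KO 1.14 and WT 1.71 FPKM at day 6, against KO 0.0424 and WT 0.0455 at day 0. In KSR it had KO 0.463 and WT 0.358 FPKM at day 4, against KO 0 and WT 0.0736 at day 0, and did not pass (adjusted p = 0.105). Kcnk6 had KO 0.153 and WT 0.391 FPKM at N2B27 day 6, against KO 2.72 and WT 2.14 at N2B27 day 0, and fell in N2B27 by 1.43 (SE 0.24, adjusted p = 0.00238).

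Accessory subunits of Kv channels split by gene. Kcnip1, a calcium-binding partner of A-type Kv4 pores, was listed at 0 in all 4 day 0 libraries and had KO 1.98 and WT 1.99 FPKM at N2B27 day 6 and KO 1.14 and WT 1.46 at KSR day 4. It rose by 1.58 (SE 0.18) in N2B27 and 1.20 (SE 0.18) in KSR. Kcnip2, of the same family, had KO 0.696 and WT 0.686 FPKM at N2B27 day 6, against KO 1.81 and WT 2.43 at N2B27 day 0, and fell in N2B27 by 0.88 (SE 0.31, adjusted p = 0.0454). That call was lost without WT N2B27 day 0 (log2 change -0.50), KO N2B27 day 6 (-0.69) or WT N2B27 day 6 (-1.06). It was also lost without either KSR day 4 library. There the change stayed at -0.88, since the KSR libraries enter its error and not the change. Kcnip3, the highest accessory gene at day 0, ran from 3.20 to 9.06 FPKM in the differentiated libraries and from 3.72 to 5.65 FPKM at day 0, and did not pass in either medium. Kcnab2 (chr4:152390742-152477871, minus strand), the main Kv beta subunit of brain, had KO 4.22 and WT 5.96 FPKM at N2B27 day 6, against KO 0.570 and WT 0.529 at N2B27 day 0. It had KO 2.47 and WT 3.67 FPKM at KSR day 4, against KO 2.58 and WT 2.62 at KSR day 0. In the KSR series its groups overlapped and in the N2B27 series they lay far apart. It rose in N2B27 by 1.96 (SE 0.21, adjusted p = 3.59e-04), and its KSR change of 0.16 (SE 0.21) did not pass (adjusted p = 0.568).

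Whether a gene changed by unequal amounts in the media was tested directly, as the N2B27 change minus the KSR change. Among the 57 tested members, 1 passed in each direction, where the background was 1.75% higher and 2.22% lower and 3.96% in either direction, a share near that of the members. Kcnab2 rose by 1.80 more in N2B27 (SE 0.30, 95% interval 1.08 to 2.52, adjusted p = 0.0345). Its day 0 series also differed: it was lower at N2B27 day 0 than at KSR day 0 by a log2 difference of -1.22 (SE 0.21, adjusted p = 0.0457), the 1 member that passed there (background 1.34% higher and 0.726% lower). Kcnj3 changed by 1.73 less in N2B27 (log2 difference -1.73, SE 0.26, 95% interval -2.36 to -1.11, adjusted p = 0.029). Each of these 3 calls was lost when any of several single libraries was left out. Without 1 of 7 libraries, every one but KO N2B27 day 6, the adjusted p was 0.0731 to 0.149 for Kcnab2 and 0.0621 to 0.133 for Kcnj3. The call of the day 0 difference of Kcnab2 was lost without any 1 of the 8. Without a differentiated library that difference stayed at -1.22, since those libraries enter its error alone. The log2 difference lay between 1.64 and 1.96 for Kcnab2 and between -1.81 and -1.65 for Kcnj3 in those fits. Of the members that rose in N2B27 alone, neither Scn3b (difference 1.71, SE 0.49, adjusted p = 0.102) nor Cacna1c (1.07, SE 0.30, adjusted p = 0.0962) passed this test. Kcnk10 (adjusted p = 0.348), Kcnn3 (0.256) and Kcnk2 (0.1655) did not pass it either.

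The differentiated cells of the media were then set side by side, N2B27 day 6 minus KSR day 4. Here 4 tested members were higher in N2B27 and 3 lower, 7.02% and 5.26%, against a background of 5.02% and 4.77%, or 9.8% in either direction. Among the higher ones, Kcnc1 differed by 1.21 (SE 0.19, adjusted p = 0.0169), Cacna1c by 0.95 (SE 0.21, adjusted p = 0.0385) and Kcnh2 by 0.79 (SE 0.14, adjusted p = 0.0225). Kcnj3 was lower, by a log2 difference of -2.39 (SE 0.19, adjusted p = 0.00302), as were Cacna2d1 (-1.20, SE 0.27, adjusted p = 0.0387) and Cacng7 (-0.62, SE 0.14, adjusted p = 0.036). Their values in each library are given above, and for each of these 6 the 2 N2B27 libraries and the 2 KSR libraries did not overlap. Kcnj3 kept its call without any 1 library. Each of the other 5 lost it without at least 3 of the 8 libraries, KO KSR day 4 and WT KSR day 4 among them in every case, with an adjusted p of 0.1 to 0.236 without one of these. Days differ as well as media in this comparison, and the 2 cannot be told apart. Endoderm markers summed to KO 44.2 and WT 126.5 FPKM at N2B27 day 6, against KO 19.9 and WT 20.0 at KSR day 4. Most of the KSR day 4 sums was Foxa2, as given above. The part of the endoderm markers in these differences was not tested.

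No tested member passed between the labels. Over the 4 conditions, KO minus WT gave 0 members higher and 0 lower (limma), where 0% of all genes were called higher and 0.00626%, which is Eif2s3y, lower. At an unadjusted p under 0.05 there were 2 members, Kcnh3 (0.45, SE 0.15) and Kcnn1 (log2 difference -0.69, SE 0.25), among 694 genes. The test of whether the label effect differed between differentiated cells and day 0 gave 0 members in either direction, against a background of 0.00626% and 0%, and 3 members at an unadjusted p under 0.05, among them Cacna1a (1.09, SE 0.25) and Kcnj4 (0.77, SE 0.29), among 679 genes. For Cacna1a the KO-labelled library was the higher at N2B27 day 6 and KSR day 4 and the lower at both day 0 pairs. Over the 129 members above 0, 0 had the 4 KO-labelled libraries all above or all below the 4 WT-labelled ones, where the background was 0.21% and 0.296%. The median standard error of the label difference over the tested members was 0.169 on the log2 scale.

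Single pairs, with no replicate, showed their widest spread at N2B27 day 6. Of 56 members at 1 FPKM or more in 1 of the pair, 7 were at least 2-fold higher and 12 at least 2-fold lower in the KO-labelled library, where the background was 4.32% higher and 7.58% lower. The 7 were Cacna1g, Kcna1, Kcnd1, Kcnf1, Kcng2, Kcnn3 and Kcnt2. The 12 included Cacna1d, Cacna2d1, Cacna2d3, Kcna5, Kcnh1, Kcnh4, Kcnk10, Kcnmb2, Kcnn1, Scn3a and Scn3b. Cacna1g was 2.3-fold higher in the KO-labelled library there. The WT-labelled library was the higher by 6.25-fold for Kcnh4 (KO 0.447 and WT 2.80 FPKM), 4.91-fold for Kcnk10, 4.27-fold for Kcna5 (KO 0.649 and WT 2.77 FPKM), 3.02-fold for Scn3a and 2.44-fold for Scn3b. Kcnmb2 was listed at 0 in the KO-labelled and at 1.07 FPKM in the WT-labelled library. In the same pair the 8 neuron markers summed to KO 93.4 and WT 313.8 FPKM, the 4 endoderm markers to KO 44.2 and WT 126.5 FPKM, and the 4 smooth muscle markers to KO 203.3 and WT 99.4 FPKM. The part of the cells that carry these markers in the channel values was not tested. In the KSR day 4 pair, where neuron markers summed to KO 131.4 and WT 137.9 FPKM and smooth muscle markers to KO 102.8 and WT 86.1 FPKM, 3 of 50 members were 2-fold higher (Cacng8 and Kcnj12 among them) and 2 lower (Kcnj2 and Kcnk9), against 2.91% and 2.04%. Scn3a (KO 1.77 and WT 2.12 FPKM) and Scn3b (KO 1.96 and WT 1.02 FPKM) were not among them. Kcnh4, Kcnk10 and Kcna5 were under 1 FPKM in both libraries of this pair and so could not be listed. For Kcna5 the values were KO 0.535 and WT 0.250 FPKM. At N2B27 day 0, 0 of 29 were higher and 5 lower (Cacng6, Kcng2, Kcnn1, Kcnu1 and Scn8a), against 2.73% and 5.19%. At KSR day 0, 2 of 31 were higher (Cacng5 and Kcnip2) and 1 lower (Cacng6), against 3% and 3.16%.

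**Figure D4:**
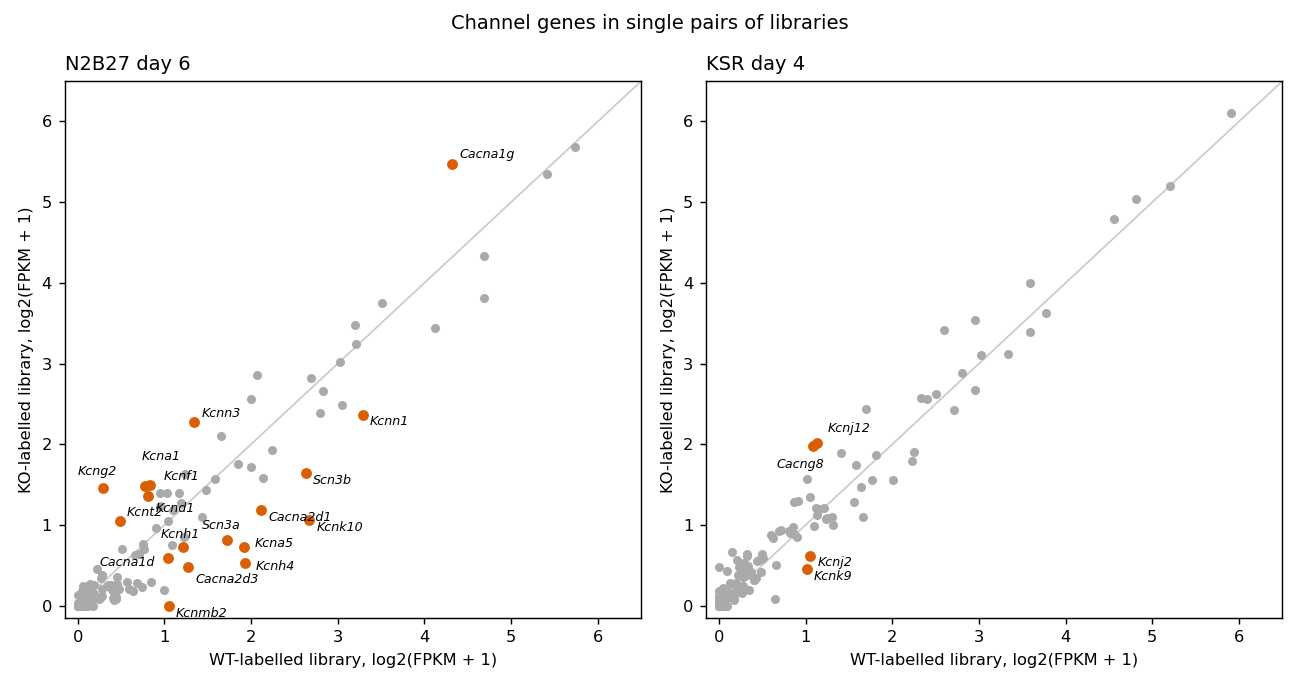
Each point is 1 of 126 of the 132 channel genes, with log2(FPKM + 1) in the KO-labelled library on the y axis and in the WT-labelled library on the x axis, for N2B27 day 6 on the left and KSR day 4 on the right. Orange points differ at least 2-fold with 1 FPKM or more on the higher side, and the diagonal marks equal values. There are 18 such points at N2B27 day 6 and 4 at KSR day 4, each from 1 library per label.

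Channel genes often lie side by side in the genome, and some neighbours differed in level or in how they moved. By GENCODE M21 coordinates, 22 groups of 2 to 4 members lie within 500 kb of the next. On chromosome 11, Cacng1, Cacng4 and Cacng5 span 107703218 to 107915055, and there Cacng4 rose in both media, Cacng5 fell in KSR and Cacng1 stayed under 1 FPKM. Cacng1 was not tested, and all 4 of its differentiated values lay above its 4 day 0 values, as for 19.9% of all genes above 0. On chromosome 7, Cacng7, Cacng8 and Cacng6 span 3332955 to 3435667, and there Cacng7 rose while neither Cacng8 nor Cacng6 passed. Cacng8 had KO 1.62 and WT 0.923 FPKM at N2B27 day 6 and KO 2.93 and WT 1.11 at KSR day 4, against 0.648 to 1.84 FPKM at day 0. On chromosome 6, Kcna1 and Kcna6 rose in both media, and Kcna5 beside them reached 1 FPKM in the WT N2B27 day 6 library and in no other. Kcna5 was not tested, and it too had all 4 differentiated values (0.250 to 2.77 FPKM) above all 4 day 0 values (0 to 0.0251 FPKM). The 5 sodium pore genes of chromosome 2, Scn3a, Scn2a, Scn1a, Scn9a and Scn7a, held 1 gene above 1 FPKM, Scn3a. Under 1 FPKM, Scn1a, Scn9a and Scn7a had all 4 differentiated values above all 4 day 0 values, and Scn2a and Scn3a did not.

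Genes that work with these channels were counted from a list of 33, of which 24 were tested. In N2B27 11 rose and 5 fell, against a background over all genes of 29.7% higher and 26.2% lower, and in KSR 12 rose and 6 fell, against 28.5% and 20%. Of the scaffold and adhesion genes of axonal membranes, some rose and some fell. Ank2 rose by 3.54 (SE 0.21) in N2B27 and 3.45 in KSR, and Nrcam by 3.58 (SE 0.29) and 4.97. Sptbn4, the spectrin of the axon initial segment and node, fell by 1.28 (SE 0.23, adjusted p = 0.00295) in N2B27 and by 1.70 (SE 0.23, adjusted p = 0.001) in KSR. Fgf13, a cytoplasmic partner of sodium channels, rose by 3.02 (SE 0.19) in N2B27 and 2.69 in KSR. Rest, the repressor of many neuronal channel genes, had KO 14.5 and WT 13.1 FPKM at N2B27 day 6, against KO 31.1 and WT 25.4 at N2B27 day 0. It had KO 15.3 and WT 15.6 FPKM at KSR day 4, against KO 37.1 and WT 39.2 at KSR day 0, and fell by 0.98 (SE 0.14, adjusted p = 0.00108) in N2B27 and by 1.25 in KSR. The pacemaker channels split, as Hcn2 fell by 1.54 in N2B27 and 1.28 in KSR and Hcn4 rose by 1.66 and 1.34.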

How the data were processed

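Polyadenylated RNA of 8 libraries was sequenced with a SMARTER kit and 150-base paired reads on a NovaSeq, per the labels' protocols. The authors deposited 1 table of FPKM for 55188 rows named by symbol, made with STAR, Cufflinks and mm10 per the submitters' processing notes; their versions and settings are not stated there. Here 110 repeated symbols (0 among the members) were joined by sum, and 132 members were found by symbol and placed with GENCODE M21 (GRCm38). The fragment depth was recovered from the steps of low FPKM times length over 8304 genes of a single transcript, where 92% to 95.8% of values between the first step and the next lay within 20% of the first; 190 to 214 genes a library lay below it. Relative depth was used for no test. Genes at 1 FPKM or more in 2 libraries (15967) were tested with limma 3.58.1 (R 4.3.3) on log2(FPKM + 1), which understates changes of low genes, with condition and label as terms over all 8 libraries, a mean trend in eBayes and Benjamini-Hochberg adjustment at 0.05 over all genes. A condition so rests on 1 library per label, and its errors are standard errors of that fit. The difference of label effects was an interaction term. Single pairs of labels were compared at 2-fold without a test. Another pseudocount, no filter, another scaling, no trend, no label term and leaving out each library were tried. Members, gene lists and tests were chosen with earlier results of these data known. Values by library were planned for the 10 members with the largest called change per direction, those called elsewhere and the highest of each role; Kcna1, Kcna3, Kcna6, Kcnh8, Kcnt1, Kcnj11, Kcnk2, Kcnip1 and the single-pair genes were added after their values were seen. For 6 members values by gene are not reported here; they are in the counts and sums, and the figures leave them out. Python 3.11.15, numpy 2.4.6, pandas 2.3.3 and matplotlib 3.10.9 did the rest.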

Additional observations from a re-analysis of the deposited data

Results flagged for a closer look

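Among the channel genes, 2 changed by different amounts in the media by a test of the difference itself, 1 in each direction of 57 tested, where the background over all genes was 3.96% in either direction. The number of members is therefore near the background. Kcnab2 changed by 1.80 more in N2B27 than in KSR on the log2(FPKM + 1) scale (SE 0.30, limma adjusted p = 0.0345): it had KO 4.22 and WT 5.96 FPKM at N2B27 day 6, against KO 0.570 and WT 0.529 at N2B27 day 0, and KO 2.47 and WT 3.67 at KSR day 4, against KO 2.58 and WT 2.62 at KSR day 0. Its day 0 values differed between the series by more than its day 6 and day 4 values did. Kcnj3 differed by -1.73 (SE 0.26, adjusted p = 0.029): it had KO 7.63 and WT 7.15 FPKM at KSR day 4 and no more than 1.07 FPKM in any other library. Both calls were lost when 1 of 7 libraries was left out.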

How the results depend on the processing

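The counts of members that rose or fell kept within 1.5 times in N2B27 and KSR under a pseudocount of 0.1, no filter, scaling by the median log2 ratio, eBayes without a trend and no label term. The small counts of the other comparisons did not. For the N2B27 change minus the KSR change, 1 higher became 2 with a pseudocount of 0.1, 0 without a filter, 2 without a trend and 3 without the label term, and 1 lower became 0 with the pseudocount and 0 without a filter. For N2B27 day 6 minus KSR day 4, 4 higher became 1 with the pseudocount and 1 without a filter. For the day 0 series, 1 lower became 2 with the pseudocount and 0 without a filter. The cause was not tested. Leaving out each library in turn gave 24 to 30 higher and 6 to 9 lower in N2B27, 20 to 31 higher and 4 to 8 lower in KSR, 0 to 4 higher and 0 to 1 lower for the difference of changes, 0 to 5 higher and 1 to 2 lower for N2B27 day 6 minus KSR day 4, and 0 higher and 0 lower for the day 0 series. Without a library its condition rests on 1, assumed to vary like the others. A library of a condition outside a comparison enters the error of that comparison and not its change. Of the members called, 28 of 39 in N2B27 and 23 of 33 in KSR passed in every setting, and no value of a called member changed sign in 410 values under other settings or 656 without a library. The median log2 change of all genes at KSR day 4 against day 0 was 0.0799 without and -0.0208 with the scaling, under which 24 members rose and 8 fell there; in the other comparisons it moved by less than 0.1.

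Each label and condition is 1 library, day 6 and day 4 differ between media, and repeat cultures were not analysed here. The Dip2c mRNA level does not separate the labels, and for 4 samples title and description disagree. Eif2s3y mRNA does separate the labels, and label contrasts cannot tell Dip2c apart from that difference. Strand use in counting is not stated, so fragments of overlapping, antisense and closely related genes cannot be told apart. At 1 FPKM a short transcript rests on few fragments. No paired analysis was possible because, by replicate number, every group is a single library with the same number; pairing by label is in the fit as its label term, and without that term 30 members rose and 10 fell in N2B27 and 27 rose and 8 fell in KSR.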
